A study of Mus musculus with 2 samples.

Results

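Stress-high sinusoidal endothelial cells of the mouse bone marrow are described here: 1054 of 3163 ranked cells of 1 endothelial library. A cell was ranked if it had at least 1000 UMIs (unique molecular identifiers, each standing for 1 captured transcript molecule), at least 5 UMIs of the sinusoidal genes Stab2, Dnase1l3 and Ackr1 together, and more of these than of Ly6a, Ly6c1, Cd34, Sema3g and Gja4 together. Ranked cells were ordered by the share of their UMIs in 6 genes, Hspa1a, Hspa1b, Hspb1, Klf4, Apold1 and Sele. The highest tercile makes up the stress-high cells, and the lowest tercile, also 1054 cells, is the reference and is called stress-low. These measured values chose the cells, so the contrast between the terciles is a description and carries no test. The name stands for the rank alone.

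The series holds 8786 cells of 2 libraries from adult bone marrow, 4536 in the endothelial library (EC) and 4250 in the library of LepR-Cre;tdTomato+ cells (LepR_tdT). Both libraries came from mice of strain C57Bl/6JCrl and genotype LepR-Cre;LSL-tdTomato, 3 to 4 months old, in which the leptin receptor gene's Cre switches on the red reporter tdTomato, so the endothelial cells carry these alleles as well. The protocol text names an intravenous VE-Cadherin antibody, enzymatic digestion with collagenase and dispase, staining for CD45 and Ter119, and tamoxifen given by gavage, but its sample numbers overlap, so which of these steps applied to the EC library is uncertain. No sort gate and no number of pooled animals is given in the sources used here. With 1 library there are no replicates, cells are not replicates, and no p-value is given.

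Sinusoids are the wide, thin-walled venous capillaries through which blood cells pass between marrow and circulation, and their endothelium carries scavenger receptors such as Stab2. In the heat shock response, the transcription factor HSF1 binds heat shock elements and switches on chaperones, which refold or hold damaged proteins. Immediate early genes are switched on within minutes of a stimulus without new protein synthesis, and activated endothelium displays adhesion molecules such as E-selectin. The same genes are known to respond to the dissociation of tissue into single cells. What tissue preparation added to the values below cannot be told apart from a state of the cells in the animal, since the library holds no cells labelled as prepared in another way.

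The upstream sequences of the heat shock genes of the ranking are shown because these 3 genes supplied most of the score. They were taken from RefSeq promoters on GRCm38.p6, and each run holds the 250 bases before the transcription start, 5′ to 3′ on the gene's own strand. The stretches are chr17:34972157-34972406 on the minus strand for Hspa1a, chr17:34959239-34959488 on the minus strand for Hspa1b and chr5:135887669-135887918 on the plus strand for Hspb1. Capitals mark the paired heat shock element, GAANNTTC or TTCNNGAA, each of which reads the same on both strands.
Hspa1a: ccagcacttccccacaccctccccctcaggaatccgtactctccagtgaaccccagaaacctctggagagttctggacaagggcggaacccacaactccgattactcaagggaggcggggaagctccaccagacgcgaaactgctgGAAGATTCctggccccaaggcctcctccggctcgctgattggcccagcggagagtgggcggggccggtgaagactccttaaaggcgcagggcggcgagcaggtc
Hspa1b: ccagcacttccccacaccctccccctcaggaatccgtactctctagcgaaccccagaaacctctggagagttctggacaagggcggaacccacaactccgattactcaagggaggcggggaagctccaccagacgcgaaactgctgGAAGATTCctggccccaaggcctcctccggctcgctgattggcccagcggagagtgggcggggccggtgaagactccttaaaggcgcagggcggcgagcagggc
Hspb1: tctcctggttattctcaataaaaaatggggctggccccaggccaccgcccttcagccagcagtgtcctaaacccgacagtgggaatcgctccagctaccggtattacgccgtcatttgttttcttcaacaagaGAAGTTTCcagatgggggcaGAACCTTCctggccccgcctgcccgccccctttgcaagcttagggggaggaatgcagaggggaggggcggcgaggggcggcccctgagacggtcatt
The Hspa1a and Hspa1b stretches are 98.8% identical, and each holds 1 match. Hspb1 holds 2 matches. Among all 32851 promoters of the table, 12.8% hold at least 1 match in the same 250 bases, and a match is a description of letters, not of a bound site. The transcripts of Hspa1a and Hspa1b are 84.3% identical over their whole length and 49.4% over their last 400 bases. How the authors' counting treated reads common to both is not given in the sources used here, so the split between these 2 genes is uncertain.

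The ranking separated the cells gradually rather than into classes. The median share of the 6 genes was 0.390% of UMIs in stress-high cells, 0.130% in the middle tercile and 0.0412% in stress-low cells. The lowest stress-high cell had 0.204% (8 of 3930 UMIs), the next cell outside had 0.2035%, and 206 ranked cells lay within 10% of that boundary. The highest share was 2.27%, and 63 stress-high cells exceeded 1%. In 261 stress-low cells none of the 6 genes had a UMI. On GRCm38 (GENCODE M21) the other rule genes lie at chr4:55527143-55532466 on the minus strand (Klf4), chr6:134981718-134986836 on the plus strand (Apold1) and chr1:164048234-164057677 on the plus strand (Sele).

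Levels below are summed UMIs of a gene scaled to a total of 1000000 UMIs over the cells of a tercile (CPM), and brackets give 95% intervals that cover counting error only. Hspa1a, an inducible HSP70 chaperone, was at 52.7 CPM in stress-low, 234 in middle and 1785 in stress-high cells. Its near-copy Hspa1b was at 20.7, 74.1 and 292 CPM, and the small heat shock protein gene Hspb1 at 176, 462 and 1194 CPM. Klf4, a zinc finger transcription factor of quiescent and flow-exposed endothelium, was at 76.8, 288 and 739 CPM. Apold1, an endothelial early response gene, was at 17.0, 109 and 426 CPM. Sele, which encodes E-selectin, was at 60.4, 175 and 247 CPM, so its middle and highest terciles lay closer together than those of the other rule genes. In stress-high cells Hspa1a made up 38.1% of the UMIs of the 6 genes, Hspb1 25.5%, Klf4 15.8%, Apold1 9.09%, Hspa1b 6.24% and Sele 5.28%.

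Each rule gene was also read after the cells had been ranked on the other 5 genes, which removes its own counts from the ranking. The log2 ratio of the highest over the lowest tercile was then 2.86 [2.75 to 2.98] for Hspa1a, 2.65 [2.40 to 2.90] for Hspa1b and 2.32 [2.12 to 2.52] for Apold1. It was 1.60 [1.51 to 1.70] for Hspb1, 1.37 [1.25 to 1.49] for Klf4 and 0.63 [0.47 to 0.81] for Sele. All 6 were higher in the highest tercile in this reading. With every cell's UMIs split at random, the ranking made on 1 part and the value read in the other, the ratios were 3.77 for Hspa1a, 3.60 for Apold1, 2.47 for Hspa1b, 2.04 for Klf4, 1.82 for Hspb1 and 0.93 for Sele.

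After every cell was thinned to 1000 UMIs, Sele had a UMI in 6.26% of stress-low, 17.4% of middle and 20.9% of stress-high cells. Without thinning the shares were 17.5%, 43.5% and 48.2%, at median depths of 3119.5, 3546 and 3743.5 UMIs. Apold1 was found in 1.14%, 8.25% and 27.9% of thinned cells and in 4.55%, 23.5% and 54.8% without thinning. As background, 12 granulocyte-type cells (median 16623.5 UMIs) had neither gene, which with so few cells allows a share of up to 26.5% (exact binomial limit). Free RNA, read from barcodes outside the cell table, held 53.1 CPM of Sele and 131 CPM of Apold1, so the low shares in stress-low cells cannot be told apart from free RNA.

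**Figure D1:**
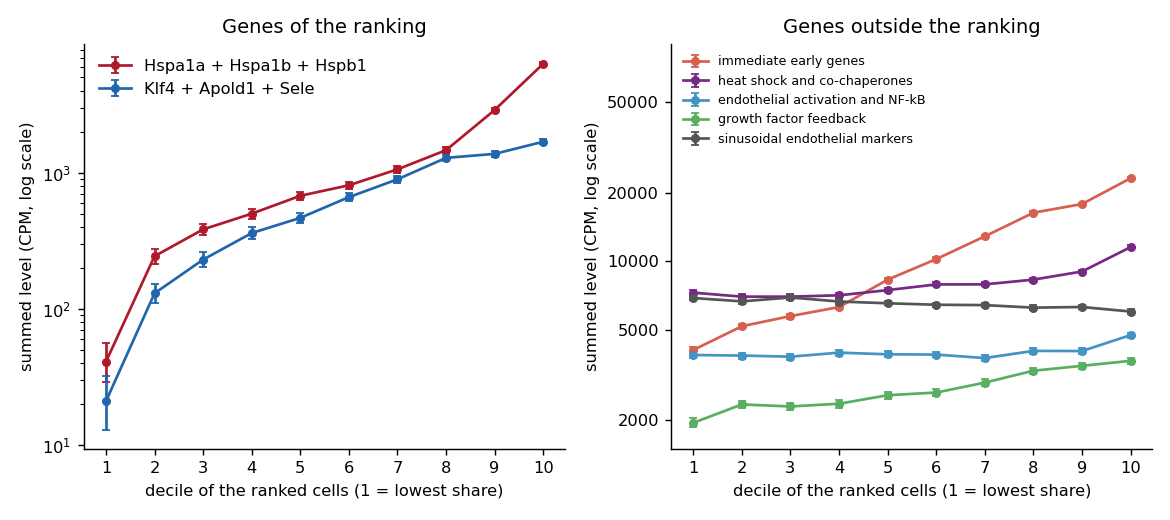
Summed CPM (log scale) of gene groups in 10 equal bins of the ranked sinusoidal-type cells, from the lowest to the highest share of the 6 genes; points are sums over the cells of a bin and bars are 95% counting intervals. Immediate early genes, which the ranking did not use, were at 4075 CPM in the first bin and 23150 CPM in the last, while the sinusoidal markers went from 6892 to 6012 CPM.

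The labelled cell type was read on the sinusoidal markers that the entry rule did not use. Stab1, a scavenger receptor, was at 676 CPM in stress-low and 637 in stress-high cells, Flt4, which encodes VEGFR3, at 527 and 461 CPM, Fcgr2b, an Fc receptor, at 920 and 822 CPM, and Mrc1, the mannose receptor, at 756 and 718 CPM. Together with Lyve1 and with Stab2, Dnase1l3 and Ackr1, whose presence the entry rule required, the 8 markers summed to 6797 CPM in stress-low, 6525 in middle and 6197 in stress-high cells. UMIs of 7 of the 8 were present in each tercile, and Lyve1 had none in stress-low or stress-high cells. The 9 general endothelial markers summed to 7769, 7607 and 7443 CPM. Stab2, a scavenger receptor of sinusoids and part of the entry rule, was at 1766 CPM in stress-low and 1619 in stress-high cells, a log2 ratio of -0.13 [-0.18 to -0.08]. Cdh5, which encodes VE-cadherin, was at 854 and 783 CPM. None of the 17 measured genes of a wider sinusoidal identity list was past 1.5-fold, and their median log2 ratio was -0.14 against -0.06 for all measured genes.

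Of 6995 genes with at least 100 UMIs over both terciles and outside the rule, 189 (2.7%) were at least 1.5-fold higher in stress-high cells and 156 (2.23%) at least 1.5-fold lower. The call is a size of ratio and includes counting error. The minimum of 100 UMIs is summed over both terciles, so a gene with few UMIs in 1 tercile can pass it mainly through the other. With TMM scaling, which moved the median of all genes from -0.06 to 0.01, the counts were 234 and 97, so the part that was higher went from 54.8% to 70.7% of called genes. Stress-high cells were deeper, with a median of 3743.5 UMIs against 3119.5, but thinned to 1000 UMIs they showed 619 genes per cell against 625. The mitochondrial share was 3.67% in stress-high and 4.20% in stress-low cells at the median, and Malat1, a nuclear RNA, was at 59146 and 59455 CPM. With terciles taken within depth bins (median 3486.5 and 3490 UMIs) the counts were 175 and 121. The EC library had 14111524 UMIs in cells, and 42 barcode sequences occurred in the cells of both libraries, 6 of them in stress-high cells.

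Immediate early genes had the highest median ratio of the 21 lists outside the rule, while blood cell markers, given below, lay farther from 0 on the lower side. Of 39 listed genes 33 were measured, 30 of these were at least 1.5-fold higher in stress-high cells (background 2.7%) and none was lower, with a median log2 ratio of 1.77. Their summed level was 5161 CPM in stress-low, 9299 in middle and 18577 in stress-high cells. The median cell gave 0.336% of its UMIs to the list in the lowest, 0.513% in the middle and 1.75% in the highest tercile. In the middle tercile the 90th percentile of cells reached 2.23%, so part of its cells had the level of stress-high cells.

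Fos, a subunit of the transcription factor AP-1, was at 505 CPM in stress-low, 1300.3 in middle and 3000.5 in stress-high cells, a log2 ratio of 2.57 [2.50 to 2.64]. Atf3, a stress-induced bZIP transcription factor, was at 5.47, 14.5 and 83.6 CPM, a log2 ratio of 3.93 [3.27 to 4.68] that was the highest among the measured genes of the list. Both genes were higher in each next tercile. Nr4a1, an orphan nuclear receptor, was at 19.3, 67.0 and 209 CPM. Egr1, a zinc finger transcription factor, was at 77.7, 148 and 512 CPM. Gadd45b, a stress-inducible signalling protein, was at 5.18, 14.3 and 46.1 CPM. In CPM, all 3 showed their wider step between the middle and the highest tercile.

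Further genes of the list with high ratios were the following. Socs3, an inhibitor of cytokine signalling through JAK and STAT, was at 92.1 CPM in stress-low and 460 in stress-high cells. Btg2, an antiproliferative early gene, was at 232 and 1107 CPM, and Ppp1r15a, which directs the dephosphorylation of eIF2alpha, at 42.6 and 219 CPM. Ier2 and Ier3, immediate early response genes, were at 151 against 729 and 80.0 against 382 CPM. Their log2 ratios lay between 2.25 and 2.36. Outside the list, 3 more of the genes with the highest ratios belong to the same class of rapidly induced genes. Cyr61, a secreted matrix-associated protein of the CCN family, was at 71.4 CPM in stress-low, 184 in middle and 497 in stress-high cells. Phlda1, a pleckstrin homology-like domain protein, was at 23.3, 50.4 and 178 CPM, and Rasd1, a Ras-like GTPase induced by glucocorticoids, at 22.4, 51.7 and 120 CPM. All 3 were higher in each next tercile. The 3 measured list genes short of 1.5-fold were Klf10 at 0.57, Dusp6 at 0.15 and Gadd45a at 0.12 on the log2 scale, named because they are the exceptions. Fosl1, Egr2, Egr3, Nr4a3 and Dusp2 had fewer than 100 UMIs, and Cebpd was not analysed here.

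The upstream sequences of Nr4a1, Nr4a2 and Dusp1 are shown because early genes of this kind are textbook targets of CREB, which binds the CRE (TGACGTCA) and its core TGACG. Nr4a2 and Dusp1 were chosen after their values were seen. The stretches lie at chr15:101266596-101266845 on the plus strand (Nr4a1), chr2:57124004-57124253 on the minus strand (Nr4a2) and chr17:26508473-26508722 on the minus strand (Dusp1), again 250 bases of RefSeq sequence on GRCm38.p6. Capitals mark TGACG or its reverse complement CGTCA, which overlap within a whole CRE.
Nr4a1: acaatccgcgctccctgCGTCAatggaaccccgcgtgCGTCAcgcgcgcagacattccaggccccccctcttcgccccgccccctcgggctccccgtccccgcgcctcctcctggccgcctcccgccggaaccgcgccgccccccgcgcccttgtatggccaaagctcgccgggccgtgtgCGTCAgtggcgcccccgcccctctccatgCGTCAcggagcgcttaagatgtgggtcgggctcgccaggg
Nr4a2: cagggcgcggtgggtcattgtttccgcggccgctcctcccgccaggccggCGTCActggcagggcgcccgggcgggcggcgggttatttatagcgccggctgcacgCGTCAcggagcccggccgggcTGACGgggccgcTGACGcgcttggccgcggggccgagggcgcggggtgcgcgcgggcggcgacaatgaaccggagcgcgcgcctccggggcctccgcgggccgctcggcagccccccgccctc
Dusp1: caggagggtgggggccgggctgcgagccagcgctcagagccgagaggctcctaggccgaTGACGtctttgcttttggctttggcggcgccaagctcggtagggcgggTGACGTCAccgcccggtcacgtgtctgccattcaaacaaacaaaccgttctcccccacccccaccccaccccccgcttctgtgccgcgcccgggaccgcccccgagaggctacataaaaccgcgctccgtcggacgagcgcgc
Nr4a1 and Nr4a2 hold 4 matches each and Dusp1 holds 3. At least 1 match stood in 20 of the 38 promoters found for the immediate early genes at least 1.5-fold higher (52.6%) and in 17.8% of all 32851 promoters. It stood in 24 of 47 promoters (51.1%) of all listed immediate early genes, called or not. In the heat shock and co-chaperone list the share was 13 of 36 (36.1%). A gene can have several promoters, and no test was made. The paired heat shock element stood in 4 of the same 38 early gene promoters (10.5%) and in 10 of the 36 (27.8%). Nr4a2, a relative of Nr4a1, was at 13.8 CPM in stress-low and 73.7 in stress-high cells, and Dusp1, a phosphatase that switches off MAP kinases, at 253 and 877 CPM.

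**Figure D2:**
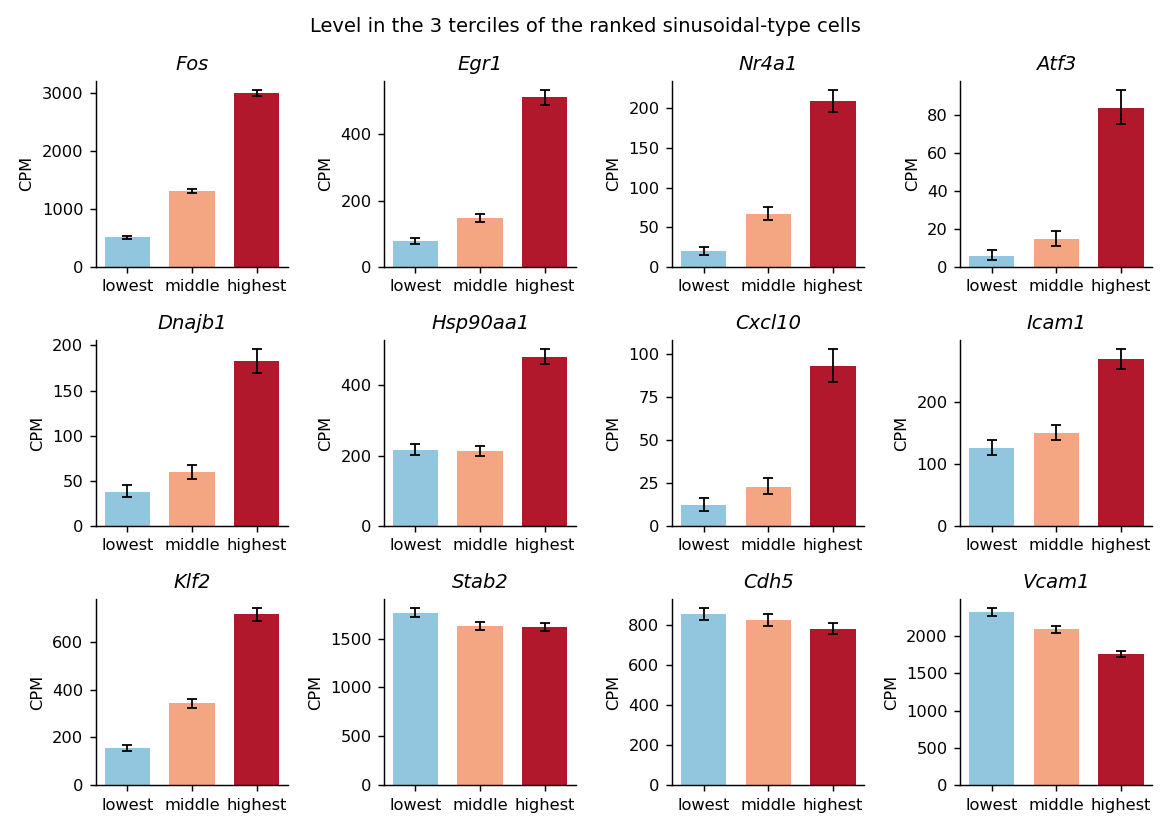
CPM of 12 genes summed over the lowest, middle and highest tercile of the ranked sinusoidal-type cells of the EC library; bars are levels and error bars 95% counting intervals. Fos, Egr1, Nr4a1, Atf3 and Klf2 were higher in each next tercile, Hsp90aa1 was at 216, 212 and 482 CPM, and Vcam1 was lower in each next tercile, from 2325 to 1757 CPM.

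Among chaperones outside the rule the difference was narrow. Of 34 listed genes 27 were measured, 6 were at least 1.5-fold higher (22.2%, background 2.7%) and none was lower, and the median log2 ratio was 0.06. Among the 6 were Dnajb1, Hsph1, Hsp90aa1, Dnajb4 and Bag3, of which the last was named after its value was seen. Dnajb1, an HSP40 co-chaperone of HSP70, was at 38.0 CPM in stress-low, 59.1 in middle and 182 in stress-high cells, a log2 ratio of 2.26 [1.99 to 2.54]. Hsp90aa1, the inducible HSP90, was at 216, 212 and 482 CPM, and Hsph1, a nucleotide exchange factor of HSP70, at 7.48, 8.41 and 22.7 CPM. For Hsp90aa1 and Hsph1 the stress-low and middle terciles did not differ beyond their counting intervals, and only the highest tercile stood apart.

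The courses along the deciles differed from gene to gene. Hsp90aa1 lay between 189 and 280 CPM in the first 8 deciles, then at 433 and 811 CPM in the last 2. Dnajb1 was at 45.1 CPM in the first decile, 123 in the eighth and 326 in the last. Fos was at 339 CPM in the first, 1391 in the sixth and 3808 in the last decile, and Egr1 at 72.4, 174 and 763 CPM, so the early genes too differed in how much of their level lay in the last deciles. Bag3, a co-chaperone of selective autophagy, was at 16.4 CPM in stress-low and 30.1 in stress-high cells. The constitutive chaperone Hspa8 was at 1074 and 1549 CPM, short of 1.5-fold. Hsf1, which encodes the master regulator itself, was at 13.0 and 12.3 CPM, a log2 ratio of -0.07 [-0.68 to 0.54].

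Genes of endothelial activation moved unevenly. Of 32 listed genes 19 were measured, 7 were at least 1.5-fold higher (36.8%, background 2.7%) and 1 lower (background 2.23%), with a median log2 ratio of 0.20. The chemokine gene Cxcl10 was at 11.8 CPM in stress-low, 22.7 in middle and 92.9 in stress-high cells, a log2 ratio of 2.98 [2.51 to 3.48]. Cxcl1, a neutrophil-attracting chemokine, was at 4.60, 11.2 and 37.7 CPM. Nfkbiz, a nuclear regulator of NF-kB target genes, was at 44.0, 77.4 and 193 CPM, and Icam1, an adhesion molecule for leukocytes, at 126, 150 and 269 CPM. The other genes that were higher were Nfkbia, Irf1 and Birc3, and the gene that was lower was Il1r1, at 38.3 against 24.4 CPM; these 4 are named to complete the count. The log2 ratio had an interval of 2.29 to 3.88 for Cxcl1, 1.88 to 2.39 for Nfkbiz and 0.93 to 1.26 for Icam1. Like that of Cxcl10, these intervals lay wholly on the higher side. They cover counting error only, and the share of all measured genes with such an interval is not given here.

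Adhesion molecules of the same setting did not share one direction. Selp, which encodes P-selectin and lies on chromosome 1 like Sele, was at 294 CPM in stress-low, 326 in middle and 386 in stress-high cells, a log2 ratio of 0.39 [0.28 to 0.51]. Vcam1, a constitutive adhesion molecule of marrow sinusoids, went the other way, at 2325, 2089.6 and 1757 CPM, a log2 ratio of -0.40 [-0.45 to -0.36]. Neither reached 1.5-fold. The ratios of Selp and Vcam1 had opposite signs with intervals apart from 0.

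Feedback regulators of growth factor and Notch signalling were in part higher. Of 21 listed genes 16 were measured, 9 were at least 1.5-fold higher (56.2%, background 2.7%) and none lower, and the median log2 ratio was 0.64. Hes1, a repressor induced by Notch, was at 220 CPM in stress-low, 321 in middle and 708 in stress-high cells. Id1, a target of BMP signalling, was at 162, 287 and 403 CPM. Spry1, an inhibitor of receptor tyrosine kinase signalling, was at 35.7, 68.3 and 121 CPM, and Dusp5, a phosphatase of nuclear ERK, at 3.74, 7.39 and 21.4 CPM, with 13 UMIs in stress-low and 87 in stress-high cells, so it was measured through its level in stress-high cells. With cells thinned to 1000 UMIs, where fewer genes were measured, 3 genes of the list were past 1.5-fold, and without the 30 cells richest in blood cell UMIs 6 were.

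**Figure D3:**
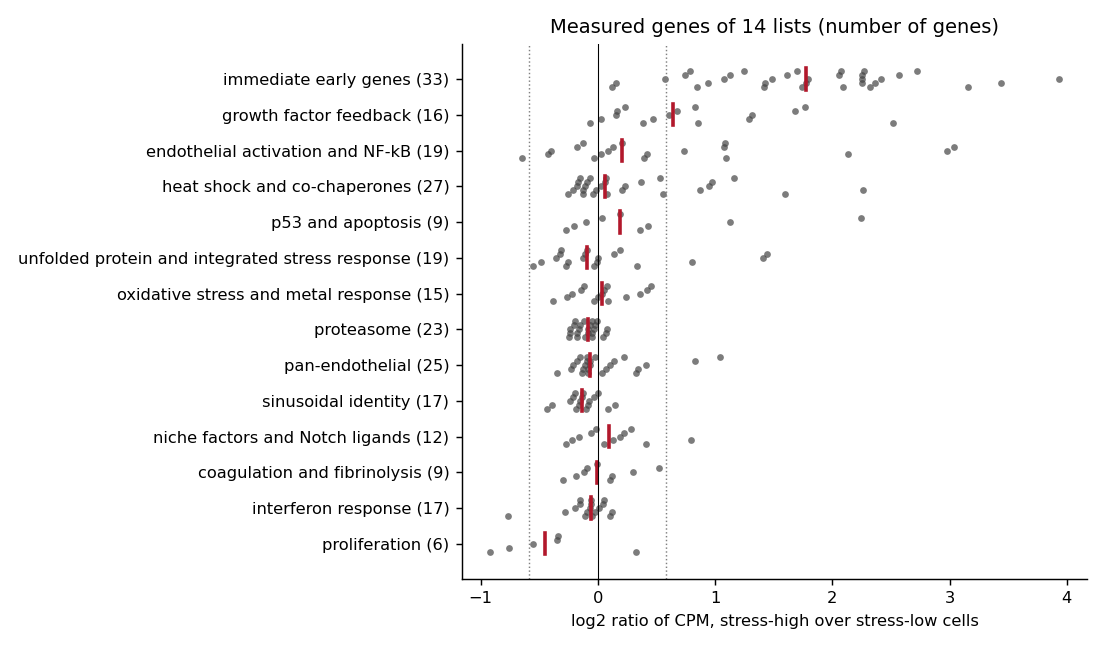
Log2 ratio of CPM, stress-high over stress-low cells, for each measured gene (1 point) of 14 gene lists with their medians (red lines); dotted lines mark 1.5-fold either way. The medians of immediate early genes (1.77) and growth factor feedback (0.64) lie to the right, and those of sinusoidal identity (-0.14) and the proteasome (-0.09) near 0.

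Several single genes of other lists were higher. Klf2, a flow-induced transcription factor, was at 156 CPM in stress-low, 344 in middle and 717 in stress-high cells, and Adm, which encodes the vasodilator adrenomedullin, at 9.78, 16.3 and 26.9 CPM. These were the 2 of 10 measured shear-responsive genes past 1.5-fold (20%, against 2.7% of all measured genes higher). Cdkn1a, the cell cycle inhibitor p21, was at 52.7, 120 and 249 CPM, and Tnfrsf10b, a TRAIL death receptor, at 8.92, 13.8 and 19.5 CPM, the 2 of 9 in the p53 and apoptosis list (22.2%). Ddit4, an inhibitor of mTORC1, Ddit3, the transcription factor CHOP, and Atf4, the central factor of the integrated stress response, had log2 ratios of 1.44, 1.41 and 0.80. They were 3 of 19 measured genes of the unfolded protein and integrated stress response (15.8%), of which none was lower.

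Genes tied to vessel type and structure are read against the same 2.7% of all measured genes. Rnd1, a GTPase of the actin cytoskeleton, was at 14.7 CPM in stress-low and 73.7 in stress-high cells, and Gja1, the gap junction protein connexin 43, at 82.3 and 147 CPM, 2 of 18 measured junction and cytoskeleton genes (11.1%). Sox17, an arterial transcription factor, was at 35.4 and 78.4 CPM and Fbln5, an elastic fibre protein, at 41.2 and 63.1 CPM, 2 of 9 measured arterial identity genes (22.2%). The arterial connexin gene Gja4 stood at 1 UMI in stress-low and 3 in stress-high cells. Sox7 and Gata2, endothelial transcription factors, were the 2 of 25 pan-endothelial genes past 1.5-fold (8%), with log2 ratios of 1.04 and 0.83. Bmp4, a secreted growth factor, was at 71.4 and 124 CPM, 1 of 12 measured niche genes (8.33%). With cells thinned to 1000 UMIs the log2 ratio of Fbln5 was 0.29, short of 1.5-fold. With cells ranked on Hspa1a, Hspa1b and Hspb1 alone, Gja1 and Sox7 were at 0.28 and 0.17. Rnd1, Sox17, Gata2 and Bmp4 stayed past 1.5-fold in every setting that gave all named genes a ratio.

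Some lists had no called gene, which is near the background of 2.7% higher and 2.23% lower at their size and is no result about them. None of 15 measured genes of the oxidative stress and metal response and none of 23 proteasome genes was past 1.5-fold in either direction. Hmox1, heme oxygenase 1, was at 126 CPM in stress-low and 172 in stress-high cells. Coagulation, lipid handling and antigen presentation likewise had no gene past 1.5-fold among 9, 9 and 8 measured genes. Neat1, the long RNA that builds paraspeckles, was at 93.2, 128 and 218 CPM from lowest to highest tercile, while the median of the nuclear speckle and splicing list was 0.05. It was the 1 gene of 20 on that list past 1.5-fold upward. Of 11 measured angiogenic and tip-cell genes Adm alone was past 1.5-fold, and of 17 interferon response genes Ifi44 alone, lower with a log2 ratio of -0.77. Of 6 measured proliferation genes 2 were lower and none higher, with a median of -0.45.

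Among the genes that were lower, Ogt, the O-GlcNAc transferase, was at 149 CPM in stress-low, 125 in middle and 86.5 in stress-high cells, a log2 ratio of -0.79 [-0.99 to -0.59]. Ttc14 was at 134, 106 and 80.1 CPM, Krit1, a junction-stabilizing protein of cerebral cavernous malformation, at 131, 106 and 84.1 CPM, and Srsf1, a splicing factor, at 80.9, 65.5 and 53.2 CPM. These 4 were lower in each next tercile, but each fell short of 1.5-fold in some alternative setting, given below. Tubb4b, a beta-tubulin, Hdgf, a growth factor, and Igfbp2, an IGF binding protein, had log2 ratios of -0.55, -0.51 and -0.49, short of 1.5-fold, and -0.34, -0.31 and -0.54 without the 30 ranked cells richest in granulocyte and erythroid UMIs, described next. Hmgb2, Tmem14c and the proliferation genes Tyms and Mcm6 were also lower, with log2 ratios of -0.68, -0.66, -0.76 and -0.92. Without the same 30 cells these came to -0.05, -0.26, -0.34 and -0.26, while Ogt came to -0.82.

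The lowest ratios belonged to blood cell transcripts. S100a8, a calprotectin subunit of neutrophils, was at 942 CPM in stress-low, 74.4 in middle and 71.7 in stress-high cells, and the 10 granulocyte markers summed to 1866, 181 and 188 CPM. All 10 had UMIs in each tercile, but the median cell had 0 in each, and 10 stress-low cells held 90.8% of that tercile's granulocyte UMIs. Erythroid markers (9 genes) summed to 4329, 705 and 771 CPM, with 90.8% of the stress-low UMIs again in 10 cells. In free RNA these lists were at 9870 and 6227 CPM. With the 30 ranked cells richest in these UMIs left out, an alternative added after the data were seen, 181 genes were higher and 119 lower, and the counts of immediate early genes and chaperones higher were 30 and 6 as before, while growth factor feedback genes higher numbered 6 in place of 9. The log2 ratio of Hbb-bs then went from -2.44 to 0.0746, and the part of free RNA in what remained was not tested.

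Markers of other cell types did not all keep 1 level. Stromal markers (12 genes) summed to 254, 251 and 252 CPM in the lowest, middle and highest tercile, arterial markers (9, of which the entry rule limited 5) to 544, 545 and 545 CPM, and pericyte markers (8) to 1450, 1396 and 1287 CPM, mostly from Kcnj8 and Abcc9. Pdgfrb and Col1a1, and for pericytes Acta2, Myh11 and Cspg4, had no UMI in stress-low or stress-high cells. Macrophage markers (11) summed to 52.7 [45.3 to 60.9], 73.1 [64.9 to 82.1] and 18.0 [14.1 to 22.6] CPM, with Adgre1, Mpeg1 and Cx3cr1 at 0 in stress-low and stress-high cells. The sum was lowest in stress-high cells, but 83.1% of the stress-low and 82.2% of the middle UMIs were in 10 cells. Cells with 5 or more of these UMIs numbered 1, 2 and 0 from lowest to highest tercile. Cells without any numbered 1013, 994 and 985, so more stress-high than stress-low cells had a macrophage UMI. The part of such cells in the results was not tested. Platelet markers (8) summed to 57.3, 43.3 and 44.4 CPM and B cell markers (7) to 24.8, 21.7 and 23.2 CPM. T and NK cell markers (6) had 2, 3 and 4 UMIs in all, and Cd3e had none. Doublets were not called, and without the deepest 5% of ranked cells 31 immediate early genes were higher.

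The 2 kinds of rule gene did not pick the same cells throughout. When cells were ranked on Hspa1a, Hspa1b and Hspb1 alone and on Klf4, Apold1 and Sele alone, 520 cells were in the highest tercile of both, 49.3% of each. A tercile holds 33.3% of all ranked cells, the share that unrelated rankings would have in common. Of the heat shock tercile, 215 of 1054 cells were in the lowest tercile of the other ranking, below that share. Under the heat shock ranking Klf4 had a log2 ratio of 0.78, Apold1 of 1.15 and Sele of 0.49. Under the Klf4, Apold1 and Sele ranking Hspa1a had 1.71, Hspa1b 1.10 and Hspb1 1.05. Each set was thus higher in the tercile chosen by the other set.

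Immediate early genes followed the Klf4, Apold1 and Sele ranking more than the heat shock ranking. The former gave 30 of 33 genes at least 1.5-fold higher with a median of 1.81 (background 2.58%), and the latter 19 of 33 with a median of 0.66 (background 1.34%). Neither ranking had a list gene at least 1.5-fold lower (background 1.51% and 1.53%). Apold1, an early response gene, is itself part of the former ranking, so that ranking is not independent of the list. The difference between the rankings was not tested. Fos had a log2 ratio of 2.58 under the former and 0.93 under the latter. Hsp90aa1 had the opposite order, 0.68 and 1.12. For Atf3 the 2 rankings gave 2.42 and 2.49.

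Crossing both rankings gave 520 cells high in both, 534 high in the heat shock genes alone, 534 high in Klf4, Apold1 and Sele alone and 1575 in neither. The immediate early list summed to 19972, 11649, 17489 and 5779 CPM in that order. Nr4a2 was at 80.7 CPM in cells high in both, 23.3 in heat shock alone, 83.8 in the Klf4 set alone and 15.2 in neither. Hsp90aa1 was at 600, 370, 204 and 217 CPM in the same order. Nr4a2 was thus high in the 2 groups with the Klf4 set, and Hsp90aa1 in the 2 with the heat shock genes. Cxcl10, at 116, 57.0, 35.0 and 16.3 CPM, and Egr1, at 622, 290, 300 and 90.5 CPM, were highest in cells high in both. Those cells also had more of the rule genes. The heat shock rule genes summed to 4060 CPM there and 2831 in heat shock alone. Klf4, Apold1 and Sele summed to 1722 CPM there and 1549 in the Klf4 set alone. Whether the levels go with the combination or with the height of the score was not tested.

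**Figure D4:**
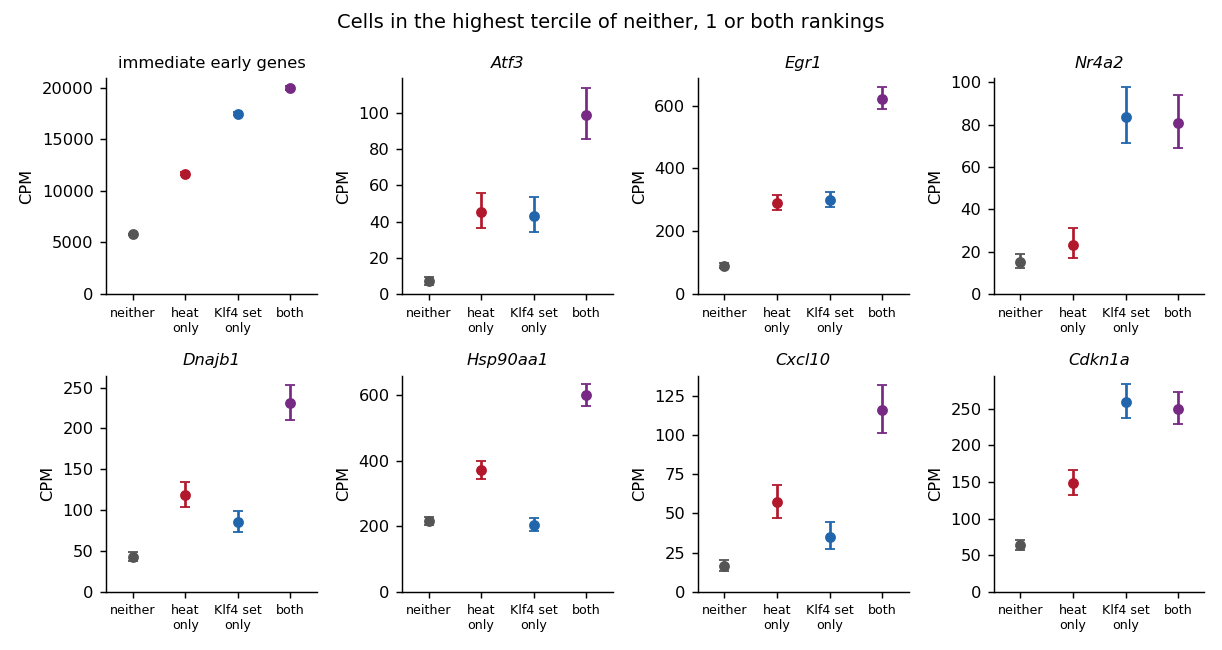
CPM of the immediate early list and 7 genes in ranked cells that were in the highest tercile of neither ranking (1575 cells), of the heat shock ranking alone (534), of the Klf4, Apold1 and Sele ranking alone (534) or of both (520); points are sums over cells and bars 95% counting intervals. Nr4a2 and Cdkn1a are high in the 2 groups with the Klf4 set, Hsp90aa1 in the 2 with the heat shock genes, and Atf3, Egr1 and Cxcl10 are highest in cells high in both.

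The same share of 6 genes occurred in other cells. At or above the stress-high boundary were 93 of 249 arterial-type cells of the EC library (37.3% [31.3 to 43.7], exact binomial), 272 of 3479 stromal-type cells of the LepR_tdT library (7.82% [6.95 to 8.76]) and 0 of 12 granulocyte-type cells. The median share was 0.130% in arterial-type and in all ranked sinusoidal-type cells. More than 1 in 2 stromal-type cells, 1807 or 51.9%, had no UMI of the 6 genes, so the lowest stromal tercile is an arbitrary set of such cells.

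Arterial-type terciles of 83 cells each were read in the same way. There 17 of 19 measured immediate early genes were at least 1.5-fold higher (background 7.02%) and none at least 1.5-fold lower (background 4.04%). Their median log2 ratio was 1.82. Only 19 of 39 listed genes passed the UMI minimum, which is summed over both terciles. A gene with few UMIs in the lowest tercile could pass mainly through the highest, so this count and median depend in part on the outcome. The summed level of the list, which needs no such minimum, was 5202 CPM in the lowest and 17215 in the highest arterial-type tercile. Fos was at 436 CPM in the lowest and 2441 in the highest arterial-type tercile, and Socs3 at 29.5 and 271 CPM. Granulocyte markers summed to 2342 CPM in the lowest and 154 in the highest arterial-type tercile, and proliferation genes to 2065 and 905 CPM, and their part in these ratios was not tested. Erythroid markers stood at 245 CPM in the lowest and 1187 in the highest stromal-type tercile. In stromal-type terciles 18 of 34 measured immediate early genes were higher (background 1.26%) and none lower (background 0.783%), with a median of 0.65. Socs3 was at 521 and 532 CPM there and Egr1 at 979 and 1121 CPM, in both terciles above the 460 and 512 CPM of stress-high cells. Hsp90aa1 had log2 ratios of 1.16 in sinusoidal-type, 0.57 in arterial-type and 1.39 in stromal-type cells. No difference between these cell types was tested.

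**Figure D5:**
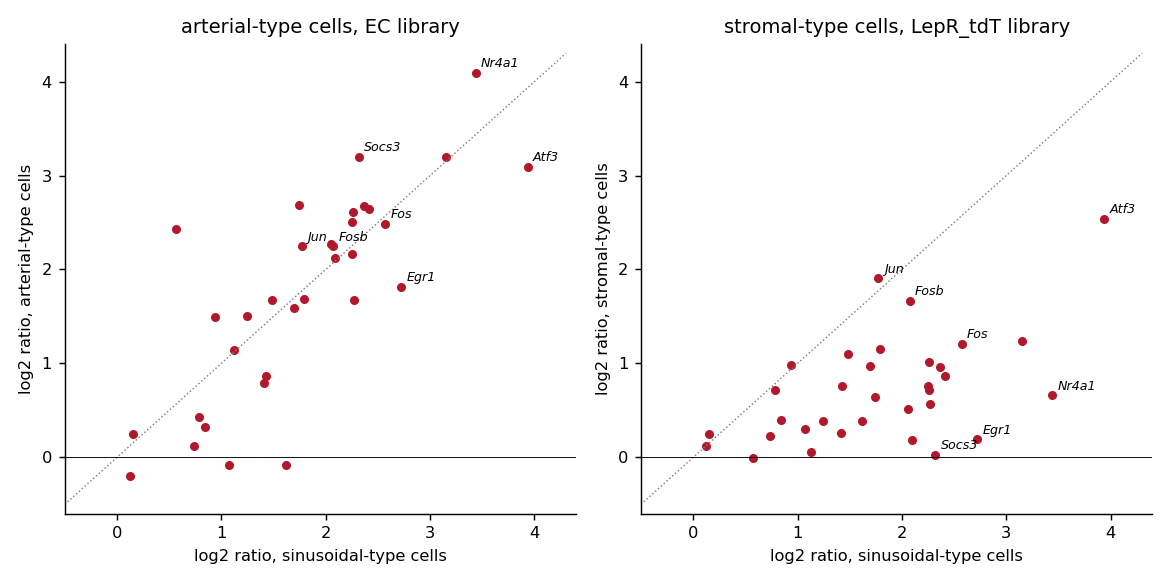
Log2 ratio of the highest over the lowest tercile of the 6-gene share for immediate early genes measured in sinusoidal-type cells (horizontal axis), against the same ratio in arterial-type cells of the EC library (left) and stromal-type cells of the LepR_tdT library (right); the dotted line marks equal ratios. Points lie around the line on the left, where genes with few UMIs are also drawn, and mostly below it on the right, where Egr1 and Socs3 are at 0.20 and 0.03.

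The LepR_tdT library held 53 sinusoidal-type cells by the same entry rule, which the ranking did not use. Of these, 21 (39.6% [26.5 to 54.0]) were at or above the stress-high boundary, 11 lay between the boundaries and 21 were at or below the stress-low boundary. The immediate early list summed to 25563, 5333 and 5601 CPM in these groups, and Fos to 4346, 352 and 483 CPM. Hsp90aa1 was at 874, 244 and 165 CPM and Stab2 at 1282, 1678 and 1130 CPM. The cells above the boundary had the higher levels of Fos and Hsp90aa1. Growth factor feedback genes went the other way from the EC library, at 2855 [2508 to 3235] CPM above the stress-high boundary and 3709 [3295 to 4159] below the stress-low one, and Hes1 was at 431 and 635 CPM. Few cells stand behind each value.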

How the data were processed

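The EC and LepR_tdT libraries were single-cell RNA libraries of 1 sample each. The authors deposited raw UMI count matrices and a table of cells; per the submitters' processing notes Cell Ranger 2.1.1, Seurat 2.3.4 and mm10 were used, in roles not given in the sources used here, nor is the annotation release. The summed counts of 8786 of 8786 cells matched the table. UMI counts were summed over cells and scaled to CPM, with exact Poisson 95% intervals and conditional exact binomial intervals for ratios. A gene was measured with at least 100 UMIs over both terciles and called at 1.5-fold. Terciles, deciles, thinning to 1000 UMIs and free RNA (barcodes outside the table with at most 100 UMIs) were computed with Python 3.11.15, numpy 2.4.6, scipy 1.17.1 and pandas 2.3.3. Ratios, intervals and calls were tried on simulated tercile sums with counting error only. That trial held no variation between cells, so it does not cover UMIs gathered in few cells. Gene positions came from GENCODE and RefSeq.

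Named genes were the 6 rule genes, the 12 highest and 12 lowest ratios among genes with at least 100 CPM, up to 4 genes of each of 21 lists, 3 of each marker set and fixed cell type genes; others are named as exceptions, to complete a count, or for their sequence. A gene of a list is counted but not reported here by name. The cells, lists and rules were chosen with earlier results of these data known. Alternatives concerned depth, scaling, boundaries, cell entry, score, averaging, low counts, doublets, other cells, mitochondrial share and free RNA.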

Additional observations from a re-analysis of the deposited data

Results flagged for a closer look

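In 4 blood cell transcripts the highest over lowest tercile ratio had opposite signs in stromal-type cells of the LepR_tdT library and in sinusoidal-type cells; the difference was not tested. On the log2 scale Hbb-bs was at 2.60 in stromal-type and -2.44 in sinusoidal-type cells. Hba-a1 was at 3.10 and -3.13, Hba-a2 at 3.21 and -2.77, and the lysozyme gene Lyz2 at 2.26 and -2.48. In the sinusoidal-type cells 10 stress-low cells held 90.8% of the erythroid UMIs of their tercile.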

How the results depend on the processing

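The main counts were 189 genes higher and 156 lower. The genes higher numbered 83 with cells thinned to 1000 UMIs, 94 with the heat shock ranking, 525 with at least 20 UMIs per gene and 81 at 2-fold. The genes lower numbered 51 when thinned, 97 with TMM scaling, 95 with a sinusoidal sum of at least 10 UMIs, 691 with at least 20 UMIs and 25 at 2-fold. Immediate early genes higher went from 30 to 19 with the heat shock ranking, and NF-kB genes from 7 to 4. Heat shock genes higher went from 6 to 3 when thinned and to 3 at 2-fold. Growth factor feedback genes higher went from 9 to 3 when thinned, 3 with the extreme deciles, 3 with the heat shock ranking and 5 at 2-fold. Of 2108 values of named genes, 24 turned sign from a main ratio past 1.5-fold, all in blood cell genes or Car2. A further 435 lay outside the counting interval of the main ratio. Turns of sign in genes short of 1.5-fold were not counted. Camp turned to 0.755 when thinned, 0.0678 with quartiles and 0.0329 without the deepest cells. Car2 turned to 0.0672 with the higher sinusoidal sum, 0.00856 as a mean of cells, 0.0718 without cells rich in other markers, 0.0836 without the deepest cells and 0.0775 without the 30 blood-rich cells. Without cells rich in other markers Hba-a1 was at 0.10, Hba-a2 at 0.18, Hbb-bs at 0.12 and Lyz2 at 0.11. Without the 30 blood-rich cells Hba-a2 was at 0.0364, Hbb-bs at 0.0746 and Lyz2 at 0.11. Lyz2 was at 0.47 when thinned, 0.21 with quartiles, 0.24 with the heat shock ranking and 0.30 without the deepest cells. S100a8 was at 0.00357 with quartiles, 0.24 with deciles and 0.0312 with the heat shock ranking, and S100a9 at 0.00962 and 0.0154 with quartiles and the heat shock ranking. Of 63 named genes past 1.5-fold, 35 were past it the same way in every setting that gave all named genes a ratio. All 35 were higher in stress-high cells, and no gene that was lower was among them. Ogt came to -0.45 when thinned and Krit1 to -0.48 with the heat shock ranking. Ttc14 and Srsf1 came to -0.49 and -0.42 with the Klf4, Apold1 and Sele ranking. The 63 include the 6 rule genes. The 35 include Hspa1a, Hspa1b, Hspb1, Klf4 and Apold1, whose ratios the ranking fixed. The rankings on the other 5 genes and on split UMIs were not among these settings. With the heat shock ranking Tnfrsf10b was at 0.36, Neat1 at 0.40, Id1 at 0.48, Atf4 at 0.50, and Icam1 and Spry1 at 0.56. These were short of 1.5-fold, as was Dnajb4 at 0.36 when thinned. The cause of these shifts was not tested. No paired analysis was possible because each library is 1 sample.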

Other observations

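Inflammatory genes below the minimum of 100 UMIs gave few counts and are listed as UMIs without a ratio. Il6, which encodes interleukin 6, had 1 UMI in stress-low and 15 in stress-high cells. The monocyte chemokine gene Ccl2 had 2 and 19 UMIs, and Cxcl2, a neutrophil chemokine gene, had 4 and 27. Csf3, which encodes G-CSF, had 1 and 3 UMIs, and Il1a and Ptgs2 had none in either set. Among early genes with few counts, Egr2 had 6 and 77 UMIs and Nr4a3 had 3 and 27. These genes were chosen after their values were seen.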
